A study of Mus musculus with 25 samples.

Results

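The genes described here were 10 clade A serpins of mouse chromosome 12, Serpina1a, Serpina1b, Serpina1c, Serpina1d, Serpina1e, Serpina3k, Serpina3m, Serpina3n, Serpina6 and Serpina10, taken by symbol from the 24358 genes of a table of sperm RNA. All 10 had a valid estimate in each of the 5 conditions. A further 15 symbols of the table begin with Serpina. The RNA came from sperm that swam out of incised cauda epididymides of adult males, labelled as 14 weeks old, and was read by all-RNA-seq, in which RNA ends are treated so that long and short molecules are both captured. First generation C57BL/6J males formed the conditions C57.CTL.F1 and C57.D300.F1, born to females given corn oil by mouth or 300 mg/kg/day of the plasticiser bis(2-ethylhexyl)phthalate (DEHP) in corn oil from embryonic day 9 to 19. FVB.CTL.F1 and FVB.D300.F1 were the same groups in FVB/N, and C57.D300.F2 were C57BL/6J males whose fathers had been exposed before birth and whose mothers had not. No second generation after corn oil was analysed here. Both strains are inbred, each condition had 5 libraries, and the labels mark 10 libraries, those of both first generation C57BL/6J conditions, as re-analysed, while the other 15 were newly made.

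Serpins are protease inhibitors that offer a reactive loop as bait and trap the protease that cuts it. Clade A holds secreted members known mainly from blood plasma, and hepatocytes are the best known source of alpha-1-antitrypsin (the Serpina1 genes of the mouse), kallikrein-binding protein (Serpina3k), corticosteroid-binding globulin (Serpina6) and protein Z-dependent inhibitor (Serpina10). In the mouse, the alpha-1-antitrypsin and antichymotrypsin genes have multiplied into arrays of similar copies.

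The deposited table gives 1 estimated count per gene and condition, which combines 5 libraries, so no test between conditions and no p-value could be computed. A value after ± is 1 SD of the count under Cuffdiff's model, not a spread between libraries. A difference is said to exceed the model SD when it was larger than the square root of the summed variances of both counts. A difference was called at 2 log2 units or more, with 1 added to each count, provided that either condition reached 10 counts. Totals lay between 6921688 and 8602900 counts per condition, and 3 counts were used as the limit of detection, which covers counting error only. All 8 sperm and spermatid markers had at least 172 counts in each condition, and their sum was 91455 for C57.CTL.F1, 77151 for C57.D300.F1, 30658 for C57.D300.F2, 7239.6 for FVB.CTL.F1 and 8656 for FVB.D300.F1. All 14 hepatocyte markers were also present in every condition, with Alb at 83529 counts and Ttr at 38822 for C57.CTL.F1. In bulk RNA, fewer cells of a type and less RNA per cell cannot be told apart.

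Serpin RNA was abundant in the re-analysed C57BL/6J conditions and low in all 3 newly made ones. The 10 genes summed to 35883 counts for C57.CTL.F1, 27764 for C57.D300.F1, 786 for C57.D300.F2, 496 for FVB.CTL.F1 and 461 for FVB.D300.F1. These sums were 0.417%, 0.358%, 0.0114%, 0.00655% and 0.00557% of all counts of the condition. Serpina3n was the exception, since its counts in the 5 conditions stayed between 250.4 and 875. The strain, the generation and the set of libraries cannot be told apart in the contrast between these groups of conditions.

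The alpha-1-antitrypsin genes are named for an inhibitor of neutrophil elastase and related proteases, an activity not known for each mouse copy. Serpina1e was their most abundant copy in every condition, with 12996 ± 10929 counts for C57.CTL.F1, 9912 ± 8673 for C57.D300.F1, 204 ± 62.9 for C57.D300.F2, 46.9 ± 15.6 for FVB.CTL.F1 and 44.3 ± 16.03 for FVB.D300.F1. Serpina1b followed with 3688 ± 1742, 3055 ± 1624, 48.7 ± 16.9, 13.9 ± 6.66 and 15.2 ± 7.35 in the same order. Both genes were therefore high in the same 2 conditions, and neither differed beyond the model SD between C57.CTL.F1 and C57.D300.F1 or between the FVB/N conditions. Serpina1d had 1857 ± 725, 1633 ± 717, 27.8 ± 11.2, 5.86 ± 3.77 and 4.45 ± 3.00 counts. Serpina1c had 645 ± 211, 643 ± 243, 12.03 ± 6.00, 3.72 ± 3.23 and 2.59 ± 2.00, and Serpina1a 555 ± 172, 606 ± 205, 13.7 ± 6.31, 5.73 ± 3.55 and 6.17 ± 3.85. These 3 copies were close to the limit of detection in FVB/N.

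The order of the conditions was the same for all 5 copies as far as the model SD resolves it. The C57BL/6J first generation lay above C57.D300.F2, which lay above both FVB/N conditions, and the steps between these neighbours exceeded the model SD. C57.CTL.F1 and C57.D300.F1 did not differ beyond it, nor did the FVB/N conditions. The model's coefficient of variation of Serpina1e was 0.841 for C57.CTL.F1 and 0.875 for C57.D300.F1, which is 1.76 and 2.02 times the median of the 200 genes nearest in count. In the FVB/N conditions it was 0.332 and 0.362, or 1.05 and 1.12 times the corresponding median.

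**Figure D1:**
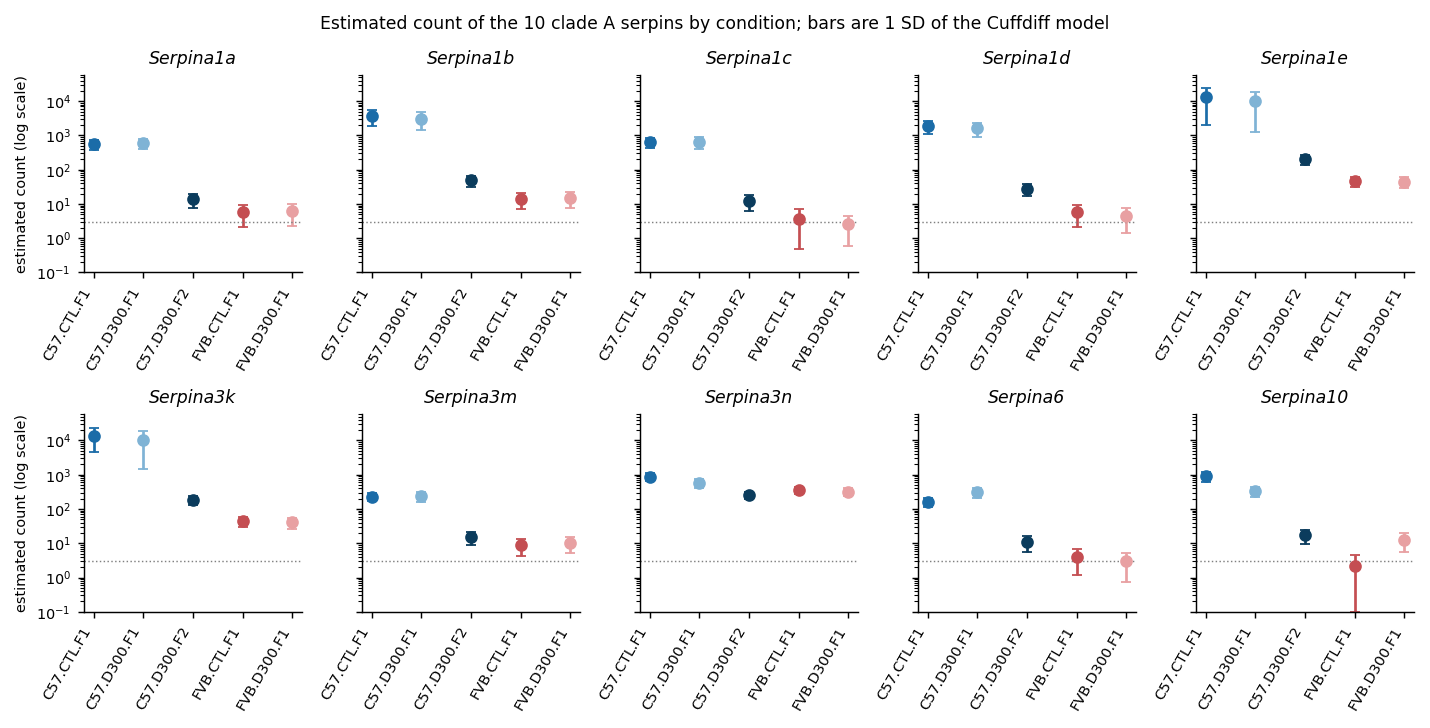
Estimated count (log axis) of each of the 10 serpins in the 5 conditions, with bars of 1 SD under the Cuffdiff model and a dotted line at 3 counts. Serpina3n stays between 250.4 and 875 counts, whereas the other 9 genes drop to 204 or fewer in C57.D300.F2 and FVB/N; the lower bar of Serpina10 for FVB.CTL.F1 reaches below the axis.

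Serpina1e and Serpina1b kept similar shares of the Serpina1 sum in the 5 conditions, while the share of Serpina1a was larger and that of Serpina1d smaller in FVB/N. Serpina1e supplied 65.8% of it in C57.CTL.F1, 62.5% for C57.D300.F1, 66.6% for C57.D300.F2, 61.6% for FVB.CTL.F1 and 60.9% for FVB.D300.F1. Serpina1b supplied between 15.9% and 20.9%. The share of Serpina1a was 2.81% for C57.CTL.F1, 3.82% for C57.D300.F1, 4.48% for C57.D300.F2, 7.53% for FVB.CTL.F1 and 8.48% for FVB.D300.F1, and that of Serpina1d was 9.41%, 10.3%, 9.08%, 7.70% and 6.12%. In FVB/N these shares rest on sums of 76.1 and 72.7 counts, and those of Serpina1a and Serpina1d on counts close to the limit of detection. They are shares of scaled estimates rather than of single reads, so no counting interval is given. Per kilobase of merged exons, Serpina1e had 8037 counts for C57.CTL.F1, Serpina1b 1527, Serpina1d 1332, Serpina1c 474 and Serpina1a 303.

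These copies are hard to separate by short reads. Their coding sequences were 96.3% to 98.5% identical over aligned bases. Of all 50-base windows of the annotated transcript, 35.6% in Serpina1e, 35.8% in Serpina1b, 50.9% in Serpina1d, 67.4% in Serpina1a and 74.2% in Serpina1c also occurred in a transcript of another gene. For 32-base windows the shares were between 50.8% in Serpina1b and 81.7% in Serpina1c. The annotated span of Serpina1b also contains that of Serpina1d on the same strand. How multiply mapped reads were divided is not given in the sources used here, so the value of a single copy is less certain than the Serpina1 sum, which was 19742, 15849, 306, 76.1 and 72.7 counts in the order used above.

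The stretch just before the start of transcription is shown to let the 5 copies be compared there, with Serpina3n beside them. Whether these sequences bear on the counts was not tested. Over the 250 bases before the start site, the Serpina1 copies were 92.1% to 98.0% identical to each other over aligned bases and 61.6% to 67.7% identical to Serpina3n. The sequences are from RefSeq on GRCm38.p6. The set of promoters used here held 6 of the 10 genes, namely Serpina1a to Serpina1e and Serpina3n. Capitals mark GTTAAT, part of the motif of the hepatocyte factor HNF1. Each Serpina1 window runs from 70 bases before that match to 10 bases after it on the minus strand, and that of Serpina3n is the last 86 bases before its start site on the plus strand. In the order of the lines, they are chr12:103863625-103863710, chr12:103738200-103738285, chr12:103904962-103905047, chr12:103773634-103773719, chr12:103956960-103957045 and chr12:104406622-104406707.
Serpina1a: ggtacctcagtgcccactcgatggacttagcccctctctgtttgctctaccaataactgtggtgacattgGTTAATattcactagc
Serpina1b: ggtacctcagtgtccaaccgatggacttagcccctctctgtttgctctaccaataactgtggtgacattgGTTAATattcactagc
Serpina1c: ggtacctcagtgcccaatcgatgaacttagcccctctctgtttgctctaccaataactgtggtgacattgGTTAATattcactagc
Serpina1d: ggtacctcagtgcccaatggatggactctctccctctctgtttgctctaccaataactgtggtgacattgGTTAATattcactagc
Serpina1e: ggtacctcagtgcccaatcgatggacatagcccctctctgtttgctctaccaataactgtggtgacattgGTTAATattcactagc
Serpina3n: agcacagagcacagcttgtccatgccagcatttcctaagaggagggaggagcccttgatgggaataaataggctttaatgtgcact

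Among the Serpina1 copies, 76 of the 86 positions were identical, and all 10 that varied lay upstream of the midpoint of the window. The first base of GTTAAT lay 26 bases before the annotated start in Serpina1b, 16 in Serpina1d, 21 in Serpina1a, 27 in Serpina1c and 78 in Serpina1e. Over the 250 bases before the start site and the 50 after it, searched on both strands, GTTAAT was found in all 5 Serpina1 copies and not in Serpina3n, against 7.20% of 27025 promoters of the same length. AGAACA, part of the glucocorticoid response element, was found in all 6 promoters and in 19.0% of all promoters. TATAAA was found in none of the 6, against 14.2% of all. The Serpina1 promoters are so alike that their matches are not separate observations, and they show no enrichment beside the share of all promoters. No match overlapped another, and a match is a description of the letters only. Of 13 promoters of other Serpina genes, 2 held GTTAAT, those of Serpina3c and Serpina7, while AGAACA was found in 8 and TATAAA in 5. Of the 2 that held GTTAAT, Serpina7 was called lower in the 4 comparisons across library sets and Serpina3c was not called in any comparison. Serpina11 and Serpina12, called lower in the same 4 comparisons, did not hold GTTAAT.

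Serpina3k, Serpina3m and Serpina3n belong to the antichymotrypsin array. Serpina3k, the kallikrein-binding protein, had counts close to those of Serpina1e, with 13979.7 ± 9367 counts for C57.CTL.F1, 10465 ± 8991 for C57.D300.F1, 186 ± 54.9 for C57.D300.F2, 45.3 ± 14.7 for FVB.CTL.F1 and 40.8 ± 15 for FVB.D300.F1. Per kilobase it had 6796 counts for C57.CTL.F1. Its conditions were ordered like those of Serpina1e, with the first generation of C57BL/6J far above the rest. Serpina3m, a neighbour of Serpina3k, had 226 ± 59.0, 234 ± 73.7, 15.4 ± 6.40, 9.00 ± 4.69 and 9.94 ± 4.90 counts in the same order. Serpina3m and Serpina3k share an annotated start, 92.6% of their aligned coding bases, and 19.1% and 14.0% of their 50-base windows with other genes, so the split of reads between them is uncertain. Per kilobase, Serpina3m had 131 counts for C57.CTL.F1.

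Serpina3n, which inhibits granzyme B and leukocyte elastase and is made by many cell types, had 875 ± 239 counts for C57.CTL.F1, 576 ± 167 for C57.D300.F1, 250.4 ± 59.1 for C57.D300.F2, 359 ± 83.7 for FVB.CTL.F1 and 322 ± 77.6 for FVB.D300.F1. It was the lowest of all conditions in C57.D300.F2 and not in FVB/N, although its values in C57.D300.F2 and FVB.D300.F1 differed by less than the model SD, as did those of the FVB/N conditions. Serpina3n thus supplied 2.44% and 2.07% of the summed count of the 10 serpins in C57.CTL.F1 and C57.D300.F1, 31.9% for C57.D300.F2, 72.4% for FVB.CTL.F1 and 69.9% for FVB.D300.F1. Of its 50-base windows, 6.898% occurred in another gene, and of its 32-base windows 20.7%.

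**Figure D2:**
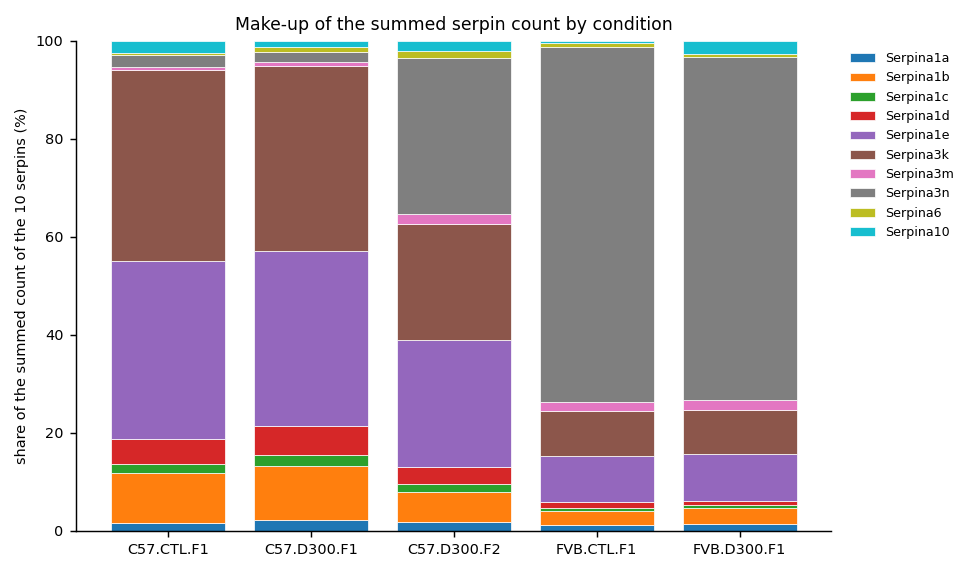
Share of each gene in the summed count of the 10 serpins (percent, stacked bars) for the 5 conditions. Serpina1e and Serpina3k make up most of the sum in C57.CTL.F1 and C57.D300.F1, and Serpina3n makes up 72.4% of it for FVB.CTL.F1 and 69.9% for FVB.D300.F1.

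The hormone carrier Serpina6 and the coagulation inhibitor Serpina10 lie at one end of the cluster and had few or no 50-base windows in common with other genes, 0% and 1.88%. Serpina6 had 160.5 ± 47.1 counts for C57.CTL.F1, 305 ± 93.0 for C57.D300.F1, 10.8 ± 5.29 for C57.D300.F2, 3.99 ± 2.83 for FVB.CTL.F1 and 2.97 ± 2.24 for FVB.D300.F1. Serpina10 had 900.2 ± 278, 335 ± 110, 16.9 ± 7.15, 2.23 ± 2.23 and 12.7 ± 7.14. Serpina6 was the only one of the 10 genes whose count in C57.D300.F1 exceeded that of C57.CTL.F1 by more than the model SD, and Serpina10 was lower there by more than the model SD.

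The comparison of C57.D300.F1 with C57.CTL.F1 asks what prenatal DEHP did in C57BL/6J, within libraries of the re-analysed set. None of the 10 serpins was called, beside 0.291% of the 16825 genes tested in either direction. Their median log2 ratio was -0.23, with 3 above 0 and 7 below, and that of all genes was -0.01. The difference exceeded the model SD for Serpina10, with a log2 ratio of -1.42, for Serpina3n, with -0.60, and for Serpina6, with 0.92. The remaining 7 lay between -0.42 in Serpina3k and 0.13 in Serpina1a. The median of the 14 hepatocyte markers was -0.49, with none called. All 5 seminal vesicle markers were called lower, with sums of 214761 counts for C57.CTL.F1 and 67.6 for C57.D300.F1, as was 1 of 7 leukocyte markers, and their part in these serpin values was not tested. The seminal vesicle markers, Svs2, Svs4, Svs5, Svs6 and Pate4, are all RNAs that the study chose on these samples. Their calls are therefore no independent evidence.

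In FVB/N, FVB.D300.F1 was compared with FVB.CTL.F1, both of the new set. Only 5 of the 10 serpins reached 10 counts in either condition, namely Serpina1b, Serpina1e, Serpina3k, Serpina3n and Serpina10. One of these, Serpina10, was called, as higher, with 12.7 against 2.23 counts and a log2 ratio of 2.08, beside 0.68% of 16471 genes called in either direction. Its lower value was under the limit of detection and its higher one just over the minimum count, and pseudocount 10, equal totals or a minimum of 100 counts removed the call. The other 4 lay between -0.16 in Serpina3n and 0.12 in Serpina1b. In the same comparison, 6 of 7 epididymis markers tested were called higher, with Gpx5 at 71.4 and 24121 counts, and 2 of 3 red cell and 1 of 6 leukocyte markers, and their part in the value of Serpina10 was not tested. Gpx5, Lcn5, Lcn8 and Spag11b of the epididymis list were also chosen by the study on these samples. The difference of the exposure ratios, FVB/N minus C57BL/6J, was 3.50 log2 units for Serpina10, -1.25 for Serpina6 and between -0.39 and 0.45 for the other 8. It was not tested, and its median was 0.17 for the 10 genes and 0.03 for all genes.

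**Figure D3:**
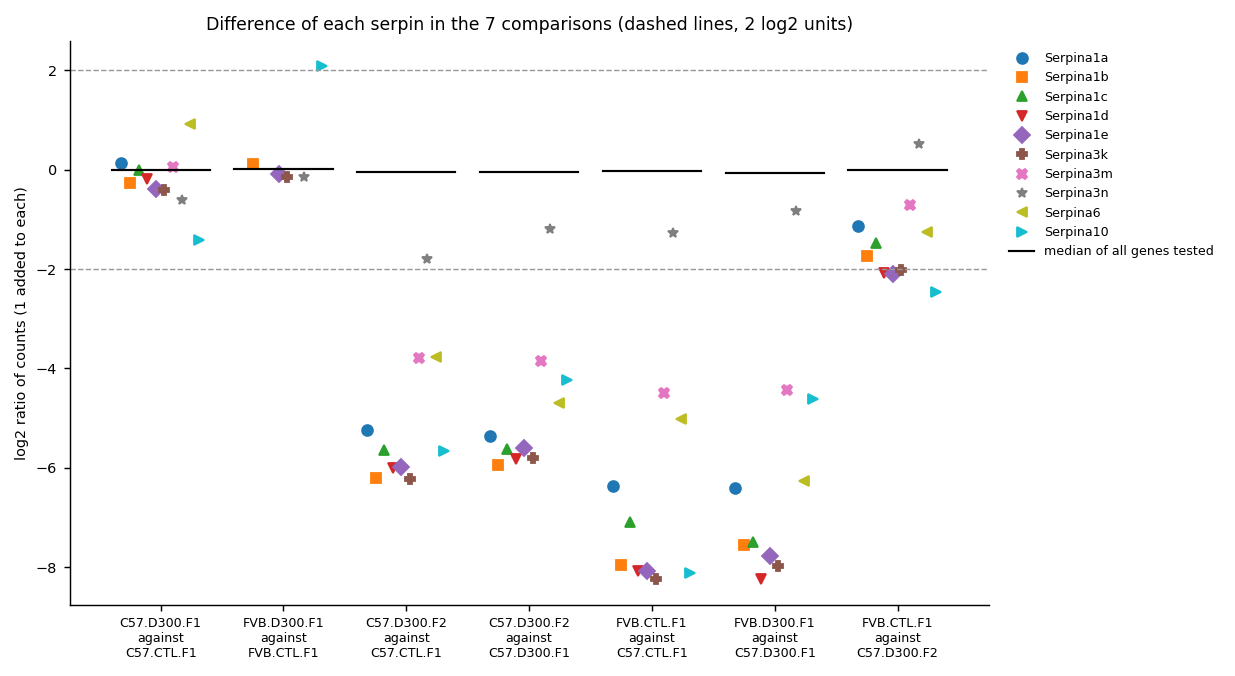
Log2 ratio of counts (1 added to each) of the 10 serpins in the 7 comparisons, shown where either condition reached 10 counts, with the median of all genes tested as a black line and dashed lines at 2 log2 units. In the 4 comparisons that cross the library sets, 9 points lie below -2 and that of Serpina3n lies between -1.80 and -0.84.

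The second generation of the exposed lineage, C57.D300.F2, had much less serpin RNA than the first generation C57BL/6J conditions, and a sum above those of FVB/N. Against C57.CTL.F1, 9 of the 10 serpins were called lower, beside 3.61% of 17114 genes called lower, and the median was -5.64 against -0.04 for all genes. Serpina3k was 75.0-fold lower (log2 ratio -6.22), Serpina1b had a ratio of -6.21, Serpina1e was 63.7-fold lower (-5.99) and Serpina10 was 53.2-fold lower (-5.65). Serpina3m and Serpina6 showed the smallest called differences, with -3.79 and -3.77. Serpina3n, at -1.80, was not called. Serpina1b, Serpina1e and Serpina3k are among the RNAs that the study chose on these samples and are no independent evidence of the direction. Of the remaining 7 genes, 6 were called lower, with a median of -5.24. These 7 are not fully separate, since Serpina1a, Serpina1c and Serpina1d share 50-base windows with other Serpina1 copies, and Serpina3m with Serpina3k. All 10 serpins were also chosen with earlier results of these data known.

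Against C57.D300.F1, which shares the lineage of exposure, C57.D300.F2 again had 9 of 10 called lower, beside 3.3% of 17133 genes. The median was -5.48 against -0.05 for all genes. The values ran from -5.94 in Serpina1b to -3.84 in Serpina3m among the genes called, and Serpina3n had -1.20. Serpina6 had -4.69 and Serpina10 -4.23. Every one of the 10 differences exceeded its model SD, here and against C57.CTL.F1. These comparisons share C57.D300.F2, so they are no separate evidence, and Serpina1b, Serpina1e and Serpina3k are again 3 of the 9 called. The design gives no second generation of newly made control libraries, so generation, lineage and library set cannot be told apart.

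The strains without DEHP differed in the same 9 serpins. Against C57.CTL.F1, FVB.CTL.F1 had 9 called lower, beside 8.88% of 17086 genes called lower. The median was -7.52 (-7.46 with Serpina10 set to the limit of detection) against -0.03 for all genes. Serpina3k was 308-fold lower (-8.24), Serpina1e was 277-fold lower (-8.08), Serpina1a was 96.8-fold lower (-6.37), Serpina6 was 40.2-fold lower (-5.02) and Serpina3m was 25.1-fold lower (-4.50). Serpina3n had a ratio of -1.28, or 2.43-fold lower, and was not called.

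With DEHP, in the comparison of FVB.D300.F1 with C57.D300.F1, 9 of 10 were called lower as well, beside 7.67% of 17377 genes called lower. The median was -6.95 (-6.87 with Serpina1c and Serpina6 at the limit) against -0.07 for all genes. Serpina1d had the largest difference, with -8.23, Serpina10 had -4.62 and Serpina3n, which was not called, had -0.84. In both strain comparisons 6 of the 7 serpins outside the study's own choice were called lower, with medians of -6.37 and -6.27. Those 7 carry the limits given above for C57.D300.F2. FVB/N reads were mapped to mm10, the genome of C57BL/6J, and reads lost to differences between the strains were not tested here. Strain and library set cannot be told apart in either comparison.

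Within the newly made libraries, FVB.CTL.F1 was compared with C57.D300.F2, which differ in strain and also in exposure lineage and generation. Serpina1d (-2.07), Serpina1e (-2.10), Serpina3k (-2.02) and Serpina10 (-2.47) were called lower in FVB.CTL.F1, which is 4 of 10 beside 3.21% of 16969 genes called in either direction. Serpina1e and Serpina3k are of the study's choice, and Serpina1d and Serpina10 are not, although Serpina1d shares 50-base windows with other Serpina1 copies. Serpina10 had 2.23 counts in FVB.CTL.F1, under the limit of detection, against 16.9 in C57.D300.F2. The median was -1.60, also with Serpina10 set to the limit, against -0.0041 for all genes. Serpina1b with -1.74, Serpina1c with -1.47, Serpina6 with -1.24 and Serpina1a with -1.13 differed by more than the model SD without being called, and Serpina3m with -0.71 did not. Serpina3n was higher in FVB.CTL.F1, with 0.52, which also exceeded the model SD.

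Hepatocyte markers were low in the same conditions as the serpins. All 14 were called lower in each of the 4 comparisons that cross the library sets, with medians of -5.21 for C57.D300.F2 against C57.CTL.F1, -4.86 against C57.D300.F1, -7.11 in FVB/N without DEHP and -7.50 with it. Their sum was 284976 counts for C57.CTL.F1, 239459 for C57.D300.F1, 7019 for C57.D300.F2, 3092 for FVB.CTL.F1 and 2227 for FVB.D300.F1, and none of the 14 was at 0 in any condition. Alb, Apoa1, Apoa2, Ahsg, Fgb, Hpx and Cps1 of this list were also chosen by the study on these samples. Sperm and spermatid markers were lower too, with medians of -1.23, -0.99, -3.27 and -2.71, and with 0, 0, 8 and 5 of 8 called. Of 7 leukocyte markers tested, 1, 1, 3 and 1 were called lower in these comparisons, and S100a8 was called higher for C57.D300.F2 against C57.D300.F1, with 2.05. Seminal vesicle markers were called lower in 5 of 5 for C57.D300.F2 and for FVB.CTL.F1 against C57.CTL.F1 (medians -9.26 and -9.69), and called higher in 4 of 5 for C57.D300.F2 and 2 of 4 for FVB.D300.F1 against C57.D300.F1 (3.40 and 1.96). With DEHP, 6 of 7 epididymis markers (median 6.58) and 1 of 3 red cell markers were called higher for FVB.D300.F1 against C57.D300.F1, and neither list had a call in the other 3 comparisons. All the seminal vesicle markers, and Gpx5, Lcn5, Lcn8 and Spag11b of the epididymis list, were likewise chosen by the study on these samples. None of the 4 adipocyte markers was called. The part of any of these cells in the serpin values was not tested.

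Relative to the hepatocyte sum, the 9 serpins other than Serpina3n came to 123 counts per 1000 for C57.CTL.F1, 114 for C57.D300.F1, 76.3 for C57.D300.F2, 44.2 for FVB.CTL.F1 and 62.4 for FVB.D300.F1. Serpina3n came to 3.07, 2.41, 35.7, 116 and 145 per 1000. The ratio of the 9 genes thus lay between 44.2 and 123 while the marker sum ranged from 2227 to 284976 counts, with FVB/N sums of which Fga, a fibrinogen chain gene, made up 46.3% and 45.8%, and the ratio of Serpina3n was higher in each newly made condition than in both re-analysed ones. Without Fga, a choice made after seeing the data, the ratio of the 9 genes became 130, 119, 82.5, 82.4 and 115, and without Alb it became 174, 196, 120, 53.2 and 74.0. The order of C57.D300.F2 and the FVB/N conditions in this ratio therefore rests on Fga.

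**Figure D4:**
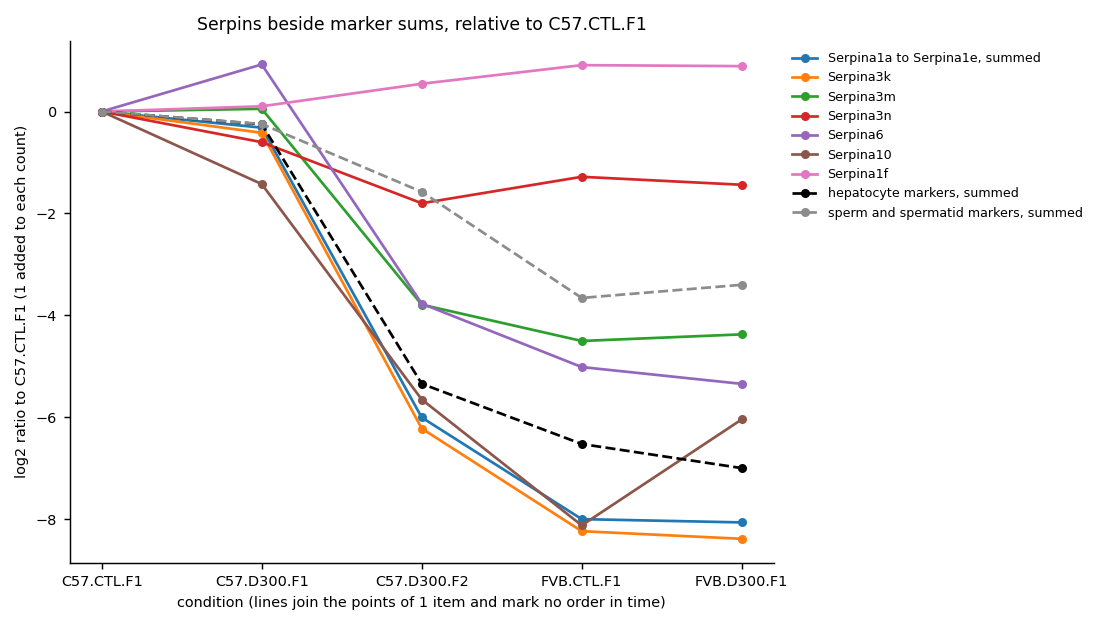
Log2 ratio to C57.CTL.F1 (1 added to each count) of the Serpina1 sum, 5 other studied serpins, Serpina1f and the sums of 14 hepatocyte and 8 sperm and spermatid markers in the 5 conditions. The Serpina1 sum and Serpina3k lie below the hepatocyte sum in C57.D300.F2 and FVB/N, Serpina3n ends at -1.44, and Serpina1f lies above 0.

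By the root mean square difference of centred log2 counts over the 5 conditions, among 11223 genes, the profiles most like that of the Serpina1 sum were Pon1 (0.13), Slco1b2 (0.17), Sult2a8 (0.18), Ces1c (0.18) and Cfhr2 (0.22). Pon1 encodes paraoxonase, an enzyme of plasma lipoproteins, and had 2598, 2422, 47.2, 10.5 and 8.27 counts. Pon1, Slco1b2, Sult2a8 and Ces1c are also RNAs of the study's choice. Slco1b2 encodes a transporter that takes up organic anions, with 3780.4 counts for C57.CTL.F1 and 14.0 for FVB.CTL.F1. Among the serpins, Serpina1e (0.05), Serpina3k (0.11), Serpina1b (0.14) and Serpina1d (0.16) lay nearest to the Serpina1 sum and Serpina3n (3.07) lay farther from it than the other 9. The Serpina1 copies are parts of this sum, with Serpina1e at 60.9% to 66.6% of it, so their nearness is partly fixed in advance. Serpina3k and Serpina3n are not parts of it. The genes most like Serpina3n were Rpl17 (0.06), Lactb2 (0.07), Thnsl2 (0.10), Hrsp12 (0.10) and Glrx5 (0.11). Rpl17, a ribosomal protein gene, had 13593, 8526, 3824, 5132 and 4485 counts. With 5 points per profile, this is a description only.

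The cluster spans 799.5 kb of chromosome 12, from Serpina10 to Serpina3n (chr12:103614786-104414329 on GRCm38, GENCODE M21). Within 250 kb of it, the table holds 24 Serpina genes and 7 others. Of the 5 other genes tested, none was called for C57.D300.F2 against C57.CTL.F1, with a median of -0.68, and 1 was called lower for FVB.CTL.F1 against C57.CTL.F1, namely Otub2, a deubiquitinase gene, with 619 counts for C57.CTL.F1, 86.03 for FVB.CTL.F1 and a ratio of -2.83. It was also called for FVB.D300.F1 against C57.D300.F1, with -2.17. Ddx24, on the same flank, had 766 and 999.9 counts and a ratio of 0.38.

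**Figure D5:**
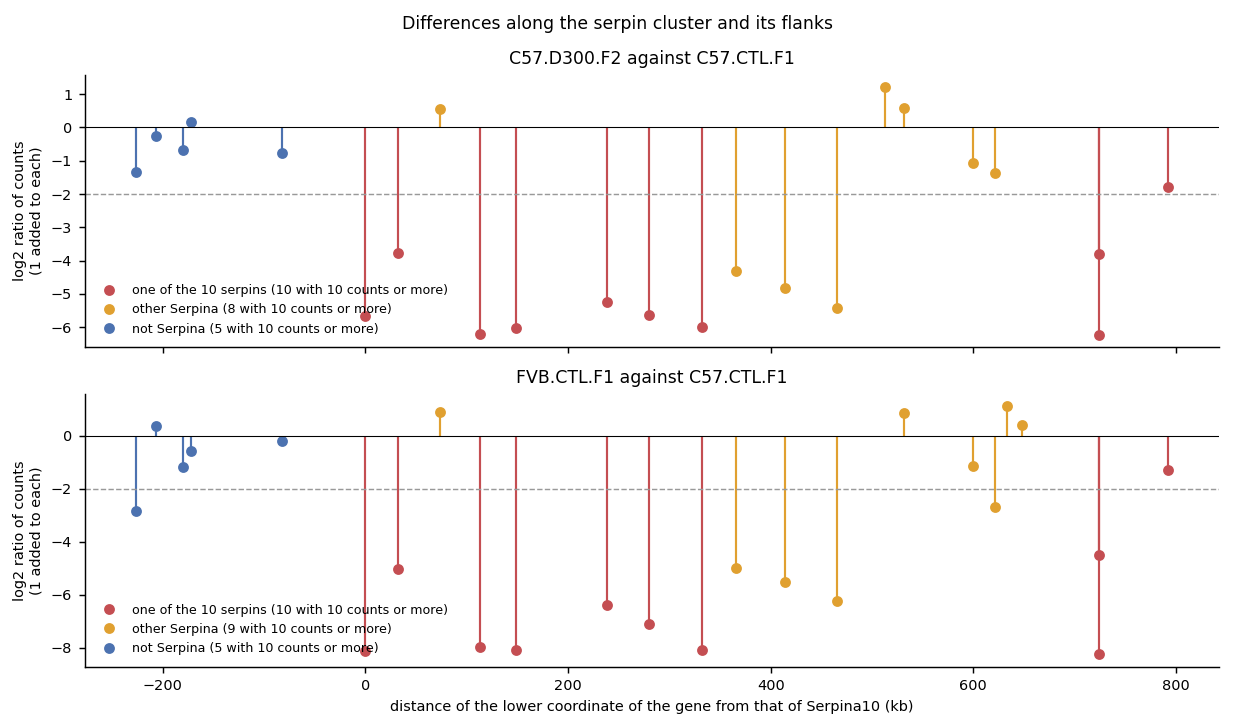
Log2 ratio of counts (1 added to each) by distance along chromosome 12 (kb from the lower coordinate of Serpina10) for genes within 250 kb of the cluster, in C57.D300.F2 (top) and FVB.CTL.F1 (bottom) against C57.CTL.F1. The studied serpins reach -6.22 and -8.24, Serpina1f between them lies above 0, and the flanking genes that are not serpins lie between -2.83 and 0.38.

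The other Serpina genes fell into both patterns. Serpina1f, a gene of the alpha-1-antitrypsin group known from the epididymis, lies between Serpina6 and Serpina1b and had 19980 ± 11268 counts for C57.CTL.F1, 21453 ± 12826 for C57.D300.F1, 29148 ± 18019 for C57.D300.F2, 37547 ± 25322 for FVB.CTL.F1 and 37041 ± 25266 for FVB.D300.F1. All of its differences were within the model SD, and none of its 50-base windows occurred in another gene. Serpina11 had 123, 102, 5.19, 2.90 and 2.50 counts, Serpina12, which encodes the adipokine vaspin, 188, 104, 5.74, 3.14 and 3.43, and the pseudogene Serpina4-ps1 646, 174, 14.0, 7.68 and 7.30. These 3 genes were high in the same 2 conditions as the Serpina1 copies. Serpina7, the thyroxine-binding globulin gene on chromosome X, had 209.8, 141, 10.9, 23.1 and 24.2, with its lowest value in C57.D300.F2 rather than in FVB/N.

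Those 4 genes were called lower in each of the 4 comparisons across library sets, which makes 4 of 9 and 4 of 9 tested for C57.D300.F2, and with Serpina3g 5 of 10 and 5 of 9 tested for FVB/N. Serpina3g, of the antichymotrypsin array, had 57.2, 49.6, 21.7, 8.03 and 11.03 counts. Serpina3c, with 25.8, 42.3, 38.8, 47.4 and 31.8 counts, was not called in any comparison. Serpina3b, Serpina3f, Serpina3h and Serpina3i reached at most 10.6, 21.2, 17.5 and 10.5 counts and were not called, and Serpina3a, Serpina3j, Serpina5 and Serpina9 stayed under 10 counts in every condition.

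Among plasma serpins whose symbols do not begin with Serpina, Serpinc1, Serpind1, Serpinf2 and Agt showed the same division, but Serpinf1 and Serping1 did not. Antithrombin (Serpinc1) had 4782, 3173, 84.5, 23.7 and 19.5 counts, and heparin cofactor II (Serpind1) had 1549, 1425, 59.8, 22.6 and 17.6. Serpinf2, the antiplasmin gene, had 765, 852, 29.8, 11.4 and 63.0 counts, and was called higher for FVB.D300.F1 against FVB.CTL.F1 with 2.37. These 3 genes were called lower in each comparison across library sets, and Serpinc1 is also of the study's choice. Angiotensinogen (Agt), at 771, 821, 115, 63.0 and 196 counts, was called lower too. Pigment epithelium-derived factor (Serpinf1) had 2668, 2872, 1474, 773 and 620 counts and was called lower once, for FVB.D300.F1 against C57.D300.F1. The complement C1 inhibitor (Serping1) had 3099, 4208, 3979, 9347 and 8918 counts, with its highest values in FVB/N, and was not called. Of the 6 genes, 4, 4, 4 and 5 were called lower in the 4 comparisons.

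The listed proteases and partners, known for serpins of these kinds but not for each mouse copy, were mostly scarce. Of 24 genes listed, 11, 9, 10, 11, 12, 14 and 11 were tested in the 7 comparisons in the order described. Those of liver followed the serpins, with F10, the coagulation factor X, at 1141, 857, 47.9, 33.2 and 49.5 counts, F11 at 154, 249, 7.10, 6.44 and 4.50, and Proz, which encodes protein Z, the cofactor of Serpina10, at 344, 360.3, 17.96, 4.26 and 7.28. These 3 were called lower in each of the 4 comparisons across library sets, in which 3, 3, 4 and 4 of the listed genes were called lower and 0, 0, 1 and 1 higher. Prtn3, a neutrophil protease, had 31.2, 14.0, 8.26, 3.54 and 5.02 counts and was called lower for FVB.CTL.F1 against C57.CTL.F1.

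Elane, the neutrophil elastase that alpha-1-antitrypsin inhibits, had at most 1.61 counts in every condition, and Ctsg at most 8.57. Among the tissue kallikreins, Klk1b27 had 78.3, 79.0, 117, 64.0 and 58.9 counts and Klk1b4 52.7, 51.6, 56.7, 85.6 and 74.7. Klk1b3 had 6.49, 6.80, 5.11, 32.8 and 30.4 counts and was called higher in FVB.CTL.F1, with 2.18 against C57.CTL.F1 and 2.47 against C57.D300.F2, and for FVB.D300.F1 against C57.D300.F1 (2.01). Klk1b11 was called higher for FVB.CTL.F1 against C57.D300.F2 (2.17), with 25.8 and 4.97 counts. Klk1b5, Klk1b16 and Klk1b26 reached at most 11.1, 22.0 and 16.2 counts. Klk1b8 was called lower for FVB.D300.F1 against C57.D300.F1 (-2.10), with 1.88 counts, under the limit of detection, against 11.3, its highest value. Cma1, a mast cell chymase, had 131, 176, 80.5, 43.1 and 46.3 counts, and Gzmb, the target of Serpina3n, 7.005, 7.81, 6.71, 12.8 and 13.0.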

How the data were processed

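Sperm RNA of 25 mouse libraries, 5 in each of 5 conditions taken from the labels, was analysed. The authors clipped the RA3 adapter, kept reads of at least 18 bases, mapped them to mm10 with TopHat using the fr-secondstrand setting, and quantified them with Cuffdiff. Base calls were made with CASAVA 1.8.2 per the labels. The deposited signal is an estimated count per gene and condition, scaled between libraries by Cuffdiff and combined over the 5 libraries, with its model variance in a second column. Cuffdiff's options, its handling of multiply mapped reads and the annotation release are not given in the sources used here. Estimates whose status was not OK, between 35 and 50 genes per condition and none of the 10 serpins, were treated as missing.

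From these signal values, log2 ratios were taken with 1 added to each count. A gene was tested where either condition had 10 counts or more, and called at 2 log2 units. The model SD is the root of the variance, and that of a difference the root of the summed variances. With a single value per condition no test was run, and the depth of a single library is unknown. The marker lists were hepatocyte, sperm and spermatid, epididymis, seminal vesicle, leukocyte, red cell and adipocyte. Further lists were plasma serpins whose symbols do not begin with Serpina, and proteases and partners of the serpins. The members and lists were chosen with earlier results of these data known. The genes named were the 10 serpins, other Serpina symbols with at least 10 counts, neighbours within 250 kb past 2 log2 units (Ddx24 was added after its values were seen), the 5 nearest profiles to the Serpina1 sum and to Serpina3n among genes with at least 100 counts, and members of the lists.

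Coordinates, transcripts and exon lengths are of GENCODE M21 on GRCm38, the assembly that mm10 names, and promoters are of RefSeq on GRCm38.p6. Overlapping models make values per kilobase approximate for Serpina1b, Serpina1d, Serpina3k and Serpina3m. Alternatives were pseudocounts of 0.1 and 10, 3 scalings, minimum counts of 100 and none, a threshold of 1, the model SD as a further condition, and the Serpina1 copies summed. Counts without the 3 genes of the study's choice, and the ratio to the hepatocyte sum with each marker left out, were added after seeing the data. The calling step was also run on simulated counts with planted changes larger than the threshold. That simulation held no similar gene copies, multiply mapped reads or differences between library sets, so it bears on the calculation only. Python 3.11.15, numpy 2.4.6, pandas 2.3.3, matplotlib 3.10.9 and biopython 1.88 were used.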

Additional observations from a re-analysis of the deposited data

How the results depend on the processing

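The 9 of 10 serpins called lower in each of the 4 comparisons across library sets became between 6 and 10 under the alternatives run, with the 6 found where the 3 genes of the study's choice were left out. Of 476 values of single serpins under alternatives, 440 moved by at most 0.5 log2 units, 36 by more, and none of those called changed sign. With pseudocount 10 the medians became, for C57.D300.F2, -4.99 against C57.CTL.F1 and -4.79 against C57.D300.F1, -5.90 and -5.47 in FVB/N against C57BL/6J without and with DEHP, and -0.91 in FVB.CTL.F1 against C57.D300.F2. With the Serpina1 copies summed, the first 4 were -4.72, -4.46, -6.51 and -5.44. Without Serpina1b, Serpina1e and Serpina3k they were -5.24, -4.69, -6.37 and -6.27, and that of FVB.D300.F1 against FVB.CTL.F1, over the 2 serpins left, was 0.96. The single call in FVB.D300.F1 against FVB.CTL.F1 was 0 with pseudocount 10, equal totals or a minimum of 100 counts. The 4 calls in FVB.CTL.F1 against C57.D300.F2 became 0 with pseudocount 10, 2 with a minimum of 100 counts, 8 with a threshold of 1 log2 unit and 2 without the genes of the study's choice. A threshold of 1 gave 1 call, Serpina10, for DEHP in first generation C57BL/6J. For the changed pseudocounts, minimum counts, threshold and model SD, the share of all genes called was not computed, so those counts have no background. A larger pseudocount shrinks ratios of low counts by construction. Scaling to equal totals moved the median of all genes by more than 0.1 in 6 of 7 comparisons, as from -0.04 to 0.28 for C57.D300.F2 against C57.CTL.F1, where 100 genes called higher and 617 lower became 175 and 539. No paired analysis was possible because values of single libraries were not given, and for the same reason no replicate was left out.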
